A study of Mus musculus with 2 samples.

Results

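T cell receptor alpha (Trav) and beta (Trbv) variable segments were described in CD8 T cells of the mouse colon. The members were all rows of the count table whose name starts with Trav or Trbv, 93 of 12798 rows, of which 71 were Trav and 22 were Trbv. The cells came from a transfer model of colitis: Rag1 knockout hosts, which make no T or B cells of their own, were given splenic CD8 T cells (TCRb+CD8b+CD4-) together with wildtype naive CD4+CD45RBhighCD25- T cells. CD8 T cells were taken from the colon lamina propria 6 to 10 weeks later, and the labels give an age of 8 to 12 weeks at transfer. The CD8 donors were Bcl6fl/fl mice, in which loxP sites flank part of the gene of the repressor Bcl6, or Bcl6fl/flCd8aCre mice, which also carry Cre under Cd8a control. The annotation names the 2 groups Cren and Crep, read here as Cre-negative and Cre-positive donors, a reading that no source spells out. Each group had 4 hashtags (antibody-linked barcodes that mark a cell's source), and all cells shared 1 droplet library. Whether a hashtag stands for a single mouse is not given, so p-values measure only the spread between hashtags.

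A receptor chain gene is assembled in the thymus by joining a variable (V) segment to a joining (J) segment, with a diversity segment between them in the beta chain, and the result is spliced to a constant gene. All daughters of a T cell inherit the joined genes, so V segments are used to follow expanded families of cells. A V segment alone does not identify a clone, because many clones share a segment and differ only at the junction, which these counts do not hold. Joining removes the DNA between the segments that are joined and leaves the V segments farther 5′ in place. Beta rearrangement usually yields a single productive gene per cell, while alpha rearrangement often goes on at both alleles, so mature T cells can carry a pair of alpha messages.

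The 3′ ends of 6 segments are shown because the results below turn on them: Trbv13-3 and Trav19 form the largest pair of Crep 4 and Trav3-3 was often found with them, Trav7-3 and Trbv2 led cluster 10, and Trbv14 led cluster 8. They are the last 60 coding bases in GENCODE M21 on GRCm38, 5′ to 3′ on the plus strand. The capitals run from the last in-frame cysteine codon, where the part of the receptor that is completed by joining begins.
Trbv13-3: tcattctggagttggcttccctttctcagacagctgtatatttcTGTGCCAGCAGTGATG
Trbv14: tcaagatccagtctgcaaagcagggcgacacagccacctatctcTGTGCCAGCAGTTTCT
Trbv2: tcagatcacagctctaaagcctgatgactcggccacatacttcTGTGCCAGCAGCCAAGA
Trav19: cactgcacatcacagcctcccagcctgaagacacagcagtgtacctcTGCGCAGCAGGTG
Trav3-3: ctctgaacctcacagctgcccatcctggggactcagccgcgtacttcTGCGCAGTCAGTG
Trav7-3: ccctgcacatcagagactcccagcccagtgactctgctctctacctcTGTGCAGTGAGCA
The beta ends lie at chr6:41130526-41130585 (Trbv13-3), chr6:41135557-41135616 (Trbv14) and chr6:41047936-41047995 (Trbv2). The alpha ends lie at chr14:53845768-53845827 (Trav19), chr14:53666447-53666506 (Trav3-3) and chr14:53443780-53443839 (Trav7-3). All 93 members matched the annotation by name, 4 of them as pseudogenes. Of the 89 members with a coding sequence to compare, 62 Trav and 2 Trbv segments were at least 90% identical to another annotated segment, and 5 were identical to one. Reads of such copies can be split or lost in counting, so single Trav names are less certain than Trbv names.

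A segment was called in a cell when it had the most unique molecular identifiers (UMIs) of its kind, without a tie and with at least 1 UMI. The 8562 cells held 39996 Trbv UMIs and 21310 Trav UMIs. A Trbv UMI was present in 88.5% of cells and a call could be made in 82.6%. For Trav the shares were 74.3% and 66.5%. Both calls, here a pair, were made in 4823 cells, which held 687 distinct pairs. All 93 members were called in at least 1 cell. A Trbv segment was called in 14 to 1191 cells (median 244) and a Trav segment in 4 to 673 cells (median 52). Every hashtag had cells called for 16 of the 22 Trbv and 16 of the 71 Trav segments. The hashtags held 900 to 1305 cells and 2635241 to 4201265 UMIs, and every hashtag's median was 2334 to 3000 UMIs per cell. Of the defining markers of the labelled cell type, Cd8b1 had a UMI in 84.4% of cells and Cd8a in 79.9%. Cd4 had one in 0.97% and the gamma-delta constant gene Trdc in 1.12%. Among the lists for other cell types, Cd4 alone passed the test between groups, with 89 UMIs in all (edgeR adjusted p = 5.15e-04). Its level was 0.476, 0.628, 0 and 0 CPM (UMIs scaled to the same total in each hashtag) in Cren 1 to 4. In Crep 1 to 4 it was 6.28, 8.92, 6.35 and 5.69 CPM. The summed level of the CD4 T cell list (Cd4, Cd40lg and Foxp3) was 3.41 to 10.7 CPM in Cren and 7.97 to 15.8 CPM in Crep. The part of cells with Cd4 UMIs in the segment results was not tested.

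The share of cells with a called Trbv was 85.7%, 85.7%, 84.7% and 78.8% in Cren 1 to 4 and 81.9%, 80.7%, 84.5% and 77.2% in Crep 1 to 4. These ranges overlapped (83.7% ± 3.33 in Cren and 81.1% ± 3.06 in Crep, SD, n = 4 hashtags each, exact two-sided permutation p = 0.286). A Trav call was made in 59.8%, 65.3%, 68.6% and 59.7% of Cren cells and in 70.8%, 68.2%, 70.1% and 70.7% of Crep cells, so only Crep 2 fell below the highest Cren hashtag. The difference of 6.60 percentage points had an exact two-sided permutation p of 0.0571, and 0.257 adjusted over the 9 single-value tests made. It reached an exact permutation p of 0.0286, the smallest this design can give, when Cren 3 was left out. A pair was called in 54.0% ± 5.46 of Cren and 58.6% ± 2.48 of Crep cells (SD, n = 4, exact two-sided permutation p = 0.2).

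Use of the beta segments was uneven and differed from hashtag to hashtag. Trbv13-3 was called in 1191 cells (16.8% of all Trbv calls), Trbv3 in 712, Trbv19 in 630, Trbv12-2 in 552 and Trbv14 in 481. Trbv13-3 took 4.03%, 11.5%, 3.77% and 22.1% of the Trbv-called cells of Cren 1 to 4, and 19.04%, 14.1%, 11.1% and 58.0% of those of Crep 1 to 4. Crep 4 stood far above the others, while the remaining Crep hashtags lay inside the Cren range. Trbv19 took 3.04%, 1.37%, 2.26% and 6.35% in Cren, and 20.4%, 15.9%, 23.0% and 1.49% in Crep. It was the leading segment of Crep 1, 2 and 3 and rare in Crep 4. Trbv14 took 15.6%, 3.48%, 12.4% and 11.3% in Cren, and 2.16%, 2.16%, 4.61% and 0.372% in Crep, where only Cren 2 fell within the Crep range. Trbv3 led Cren 2 and Cren 3 with 18.4% and 23.0%.

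**Figure D1:**
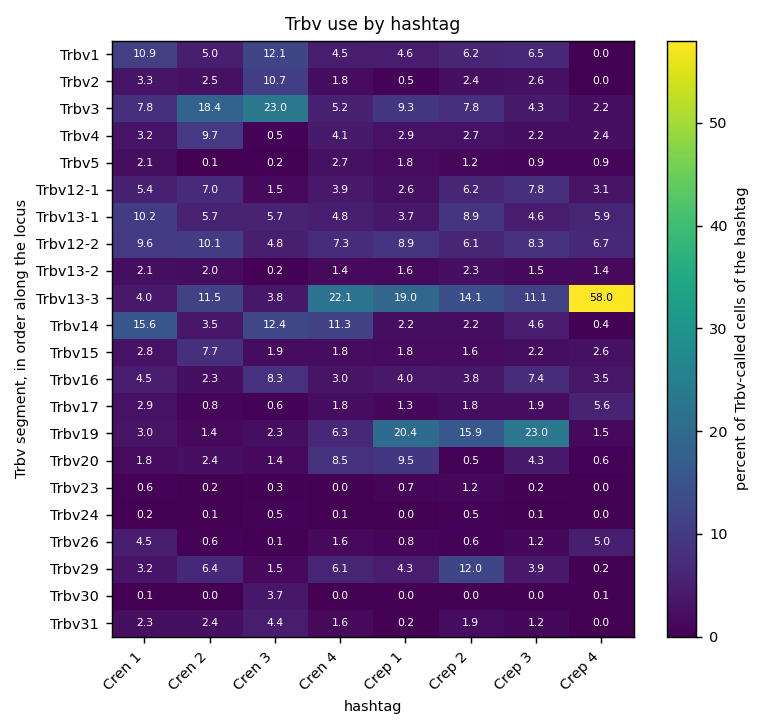
Percent of the Trbv-called cells of each hashtag (columns) called for each Trbv segment (rows, in order along the locus). Crep 4 stands out with 58.0% Trbv13-3, Trbv19 takes 15.9% to 23.0% of Crep 1 to 3, and Trbv3 leads Cren 2 and Cren 3.

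Among the alpha segments Trav19 was called most often, in 673 cells, followed by Trav3-3 in 346 and Trav12-2 in 336. Trav19 took 0.512%, 0.693%, 0.533% and 1.12% of the Trav-called cells of Cren 1 to 4, and 12.1%, 11.2%, 8.69% and 57.2% of those of Crep 1 to 4. All 4 Crep hashtags were above all 4 Cren hashtags. Trav8n-2 took 1.41%, 6.51%, 2.80% and 27.0% in Cren and 0%, 1.08%, 0.142% and 0.270% in Crep, so that the groups again did not overlap. Other alpha segments led in a single hashtag: Trav2 took 15.7% of Crep 1, Trav14-3 took 13.99% of Cren 2 and Trav7-3 took 13.0% of Cren 3.

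Segment levels were compared between the groups as UMI sums per hashtag, in a fit over all genes (edgeR quasi-likelihood test, Benjamini-Hochberg adjustment at 0.05). This test called 59 of 9653 genes (0.611%) and 0 of the 64 V rows that passed its filter on low counts. At an unadjusted p under 0.05 it marked 5 of the 64 V rows, beside 11.1% of all genes. The median log2 fold change of the 64 V rows, Crep minus Cren, was -0.02, beside -0.00059 over all genes tested. The levels of 2 of the 64 V rows, Trav8n-2 and Trav19, did not overlap between the groups, beside 6.68% of all genes tested. Trav19 had 4.28, 5.65, 1.82 and 6.06 CPM in Cren and 95.9, 87.5, 57.8 and 531 CPM in Crep. Its log2 fold change was 5.44 with an SE of 1.12 (edgeR adjusted p = 0.135). Without Crep 4 it was 4.20 and passed (edgeR adjusted p = 3.16e-04). Trav8n-2 had 11.4, 59.7, 24.8 and 251 CPM in Cren and 0.661, 8.05, 0.952 and 2.28 CPM in Crep. Its log2 fold change was -4.71 with an SE of 1.48, and edgeR gave an adjusted p of 0.310. Trbv19 was at 2.35 (SE 0.809, adjusted p = 0.350) and Trbv14 at -2.33 (SE 0.747, adjusted p = 0.319) in the same edgeR fit. DESeq2, used as an alternative, called 145 of 11796 genes (1.23%) and 2 of 82 V rows, again Trav8n-2 and Trav19. At an unadjusted p under 0.05 DESeq2 marked 22 of the 93 V rows, beside 7.39% of all rows. Without the low-count filter edgeR marked 12 of 93 V rows, beside 10.3% of all genes. With the number in the hashtag's name as a block it marked 16 of 77, beside 12.8%. The standing of V rows against all genes thus depended on the fit.

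Diversity was measured as the repeat probability, the chance that 2 called cells drawn from the same hashtag have the same call. For Trbv it was 7.69%, 9.07%, 11.2% and 9.43% in Cren and 11.2%, 8.93%, 9.92% and 35.4% in Crep. For pairs it was 1.96%, 5.10%, 4.28% and 6.29% in Cren and 4.79%, 2.47%, 2.15% and 25.4% in Crep. Crep 4 was the least diverse hashtag. The other Crep hashtags were within the Cren range, except that Crep 1 (11.22%) was just above Cren 3 (11.19%) for Trbv. The means differed by less than the spread between hashtags. They were 9.35% ± 1.44 and 16.4% ± 12.7 for Trbv (exact two-sided permutation p = 0.286), and 4.41% ± 1.83 and 8.71% ± 11.2 for pairs (exact two-sided permutation p = 0.8, SD, n = 4 hashtags each). Trav gave 6.62% ± 2.60 and 12.7% ± 15.1 (SD, n = 4, exact two-sided permutation p = 0.8). Without Crep 4 the difference was 0.677 points for Trbv, -1.46 for Trav and -1.28 for pairs. In 400 called cells drawn from each hashtag, 54.3 pairs were expected in Crep 4 and 165 in Cren 1, the extremes of the 8 hashtags. Trbv use was about as far apart between the groups (mean Bray-Curtis distance 0.431) as within them (0.380), with an exact one-sided permutation p of 0.0857 (0.257 adjusted).

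The largest pair of each hashtag held 9.94%, 15.5%, 10.7% and 22.2% of the pair-called cells of Cren 1 to 4, and 16.5%, 9.97%, 8.21% and 48.9% of those of Crep 1 to 4. These shares did not separate the groups (14.6% ± 5.65 and 20.9% ± 19, SD, n = 4, exact two-sided permutation p = 0.771). In order of the hashtags the pairs were Trav9-2 with Trbv14 (68 cells), Trav14-3 with Trbv3 (99), Trav7-3 with Trbv2 (69), Trav8n-2 with Trbv13-3 (94), Trav2 with Trbv19 (102), Trav4-3 with Trbv19 (62), Trav12-1 with Trbv19 (50) and Trav19 with Trbv13-3 (286). No pair led more than 1 hashtag. In all, 86 pairs reached 10 cells in at least 1 hashtag, 7 of them in 2 or more, which gives 96 combinations of pair and hashtag with 54.7% of the pair-called cells. Of the 687 pairs, 413 were seen in a single hashtag, 149 in 2, 75 in 3, 36 in 4, 10 in 5 and 4 in 6, and 0 in more. A hashtag shared 9 to 48 pairs with a hashtag of the other group (7.89% to 31.3% of its pairs) and 10 to 42 with another of its own group (7.94% to 41.8%). In each hashtag, 37 to 132 of its 67 to 227 pairs were seen in 1 cell only, and a call needs only 1 UMI of each chain. These counts of shared and unshared pairs therefore rest in large part on single cells. A shared pair name need not be a shared clone.

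**Figure D2:**
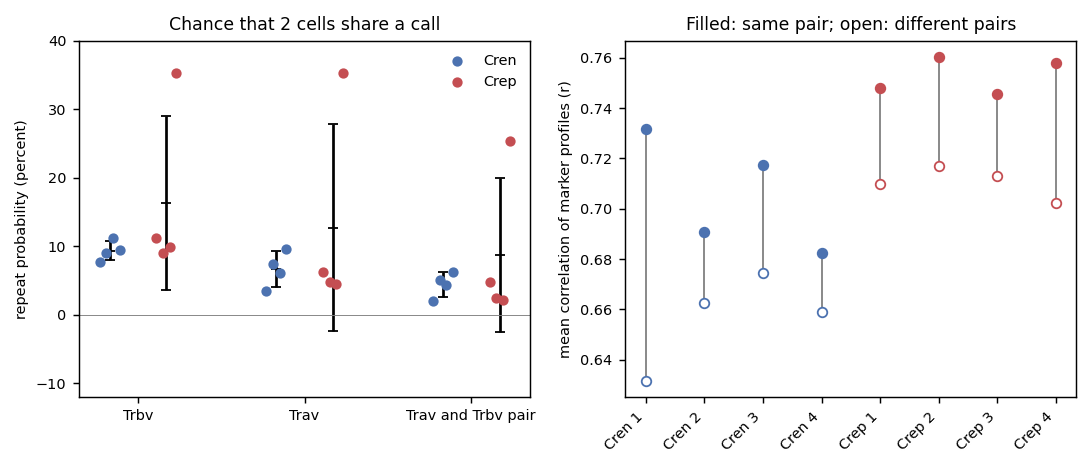
Left, repeat probability (percent) of Trbv, Trav and pair calls in each hashtag (points), with the mean and SD of 4 hashtags (black). Crep 4 lies at 35.4%, 35.3% and 25.4%. Right, mean correlation of marker profiles between cells of the same pair (filled) and of different pairs (open) in each hashtag; the filled point is higher in 8 of 8.

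Cells with the same pair tended to be found in the same cluster of the deposited annotation. Within a hashtag, 26.2% to 54.9% of couples of cells with the same pair lay in the same one of the 12 clusters, beside 10.9% to 21.5% of couples with different pairs. The difference was 23.0 points on average and 13.1 to 43.9 points over the 8 hashtags. Each couple counted once, so pairs with many cells weighed most. In Crep 4 most of the 43431 same-pair couples came from the 286 Trav19 Trbv13-3 cells. Shares with pairs weighted equally were not computed. These cluster shares are a description, because the clusters were made from the same cells and V genes may have entered them. Likeness of state was therefore also measured without any receptor gene, as the correlation of log-normalised profiles over 60 marker genes of T cell states and other cell types. Same-pair cells correlated at 0.732, 0.691, 0.717 and 0.683 in Cren and at 0.748, 0.760, 0.746 and 0.758 in Crep. Different-pair cells correlated at 0.632, 0.663, 0.675 and 0.659 in Cren and at 0.710, 0.717, 0.713 and 0.702 in Crep. The excess was 0.0455 ± 0.0242 (SD, n = 8 hashtags) and positive in 8 of 8. It too was averaged over couples, so large pairs weighed most. Its exact two-sided sign permutation p was 0.0078, the smallest that 8 hashtags can give, and 0.0703 adjusted over the 9 tests, which does not pass 0.05. The excess was 0.0486 ± 0.0352 in Cren and 0.0424 ± 0.0100 in Crep (exact two-sided permutation p = 0.914, n = 4 each).

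The larger pairs differed in which states they held. Of the 96 combinations of pair and hashtag with at least 10 cells, 88 were spread over 3 or more clusters, with a median of 5 clusters. The most frequent cluster held 25% to 100% of a pair's cells (median 50%). Trav7-3 with Trbv2 in Cren 3 had 60 of 69 cells (87.0%, 95% Wilson interval 77.0 to 93.0) in cluster 10, beside 3.48% of the other pair-called cells of that hashtag. Trav3-3 with Trbv14 in the same hashtag had 59 of 66 cells (89.4%, 79.7 to 94.8) in cluster 8, beside 13.1%. Trav8n-2 with Trbv13-3 in Cren 4 had 69.1% of its cells in cluster 0, beside 21.3%. Spread pairs included Trav14-3 with Trbv3 in Cren 2, with 34.3%, 23.2%, 18.2% and smaller shares in clusters 3, 2, 0 and others. Trav2 with Trbv19 in Crep 1 had 39.2% in cluster 3 and 27.5% in cluster 4.

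**Figure D3:**
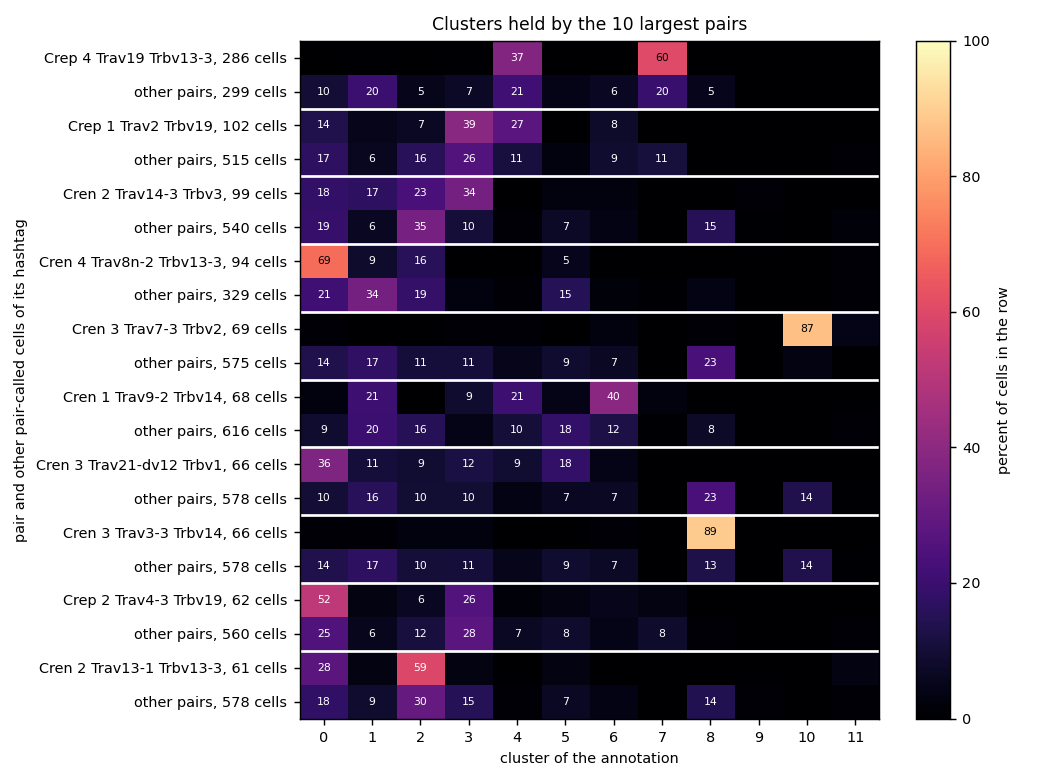
Percent of cells in each of the 12 clusters for the 10 largest pairs (labelled rows) and for the other pair-called cells of the same hashtag (row beneath each). Trav7-3 Trbv2 lies mostly in cluster 10, Trav3-3 Trbv14 in cluster 8 and Trav19 Trbv13-3 in clusters 7 and 4, while Trav14-3 Trbv3 is spread over several.

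Marker levels of these pairs, each from a single hashtag and so with no test, are given with exact 95% Poisson intervals that cover counting error only. Trav3-3 Trbv14 cells of Cren 3 had 360 CPM of Tox (283 to 452), a transcription factor of exhausted T cells, beside 68.1 CPM (56.9 to 80.9) in other pair-called cells of the hashtag. Their level of Pdcd1, the inhibitory receptor PD-1, was 322 CPM (249.5 to 409) beside 72.8 (61.2 to 86.0). A Tox UMI was present in 66.7% of these cells and in 13.8% of the others. Trav7-3 Trbv2 cells of the same hashtag stood low for both genes. Tox was at 3.84 CPM (0.0971 to 21.4) beside 110 CPM in other pair-called cells, and Pdcd1 at 30.7 CPM (13.3 to 60.5) beside 107. Those other cells include the Trav3-3 Trbv14 cells. Trav21-dv12 Trbv1 cells of this hashtag were low as well, with 9.23 CPM of Tox (1.12 to 33.3). They held 0 Pdcd1 UMIs, which allows up to 13.8 CPM. Trav8n-2 Trbv13-3 cells of Cren 4 had 458 CPM (383 to 542) of Itgae, the integrin that binds epithelial cells, beside 177 CPM (152 to 204). Of other tissue-resident genes, Cxcr6 was higher too (557 beside 401 CPM). Cd69 (172 beside 212 CPM) and Zfp683 (13.8 beside 14.9 CPM) were not. Trav9-2 Trbv14 cells of Cren 1 had 0 Itgae UMIs, which allows up to 12.4 CPM, beside 117 CPM (103 to 132). Their level of Gzma, a granzyme, was 6973 CPM (6644 to 7313) beside 2849 CPM (2778 to 2922). Itgae was also low in Trav3-3 Trbv14 cells of Cren 3, at 14.4 CPM (2.97 to 42.1) beside 124 CPM.

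Seen from the clusters, most held many pairs. In clusters 0 to 3, 5 and 6 the pair repeat probability over all hashtags was 0.509% to 1.48%. Within hashtags with at least 20 pair-called cells there, the medians of these clusters were 2.11% to 6.53%, and single hashtags reached 25.4% in cluster 0 (Cren 4) and 15.9% in cluster 3 (Cren 2). Over all hashtags cluster 4 had 9.58%, cluster 8 had 7.88%, cluster 7 had 49.9% and cluster 10 had 59.9%. In cluster 7, 398 of 465 Trbv-called cells (85.6%) were Trbv13-3, and 64.7% of its cells came from Crep 4. Within the 3 hashtags with at least 20 called cells there, the Trbv repeat probability was 55.9% to 86.0%. Cluster 10 was almost entirely Cren 3 (97.3% of 112 cells), with 84 of 90 Trbv calls for Trbv2. Cluster 8 was led by different pairs in different hashtags: Trav3-3 Trbv14 took 43.7% of its pair-called cells in Cren 3, Trav12-2 Trbv4 took 47.0% in Cren 2, and Trav6n-6 Trbv3 took 27.1% in Cren 1. Trav6n-6 Trbv3 was also present in Cren 3, and 13 of 16 cells in Cren 1 and 16 of 16 in Cren 3 lay in cluster 8. Cells named Trav16n Trbv13-1 lay in different clusters in Cren 2 and Crep 2. In Cren 2, 100% of 11 cells lay in cluster 8, and in Crep 2 the largest share of 20 cells, 40%, lay in cluster 2. Cluster 8 held 132 cells of Cren 2 but only 7 of Crep 2, and the shared name need not be a shared clone. Cluster 9, with a median of 1007 UMIs per cell, had a Trbv call in 38.7% of cells. In cells thinned to 2000 UMIs this was 78.9% (19 cells), within the 70.2% to 90.1% of the other clusters. A Trav call, thinned the same way, was made in 31.6% of these cells, below the 52.9% to 74.3% of the other clusters. Both thinned shares rest on the 19 of the cluster's 119 cells that held 2000 UMIs, so they are uncertain and may not stand for the rest.

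Trav19 with Trbv13-3 was the only pair with at least 10 cells in 4 hashtags, and it was singled out after V use had been seen. It was called in 58, 42, 34 and 286 cells of Crep 1 to 4, which is 9.40%, 6.75%, 5.58% and 48.9% of their pair-called cells. In Cren it was called in 0, 0, 0 and 1 cells, where 0 cells allow up to 0.439% to 0.469%. Each of the 9 other largest pairs had 0 to 11 cells in all other hashtags together. Among cells called for Trbv13-3, a Trav19 UMI was present in 49.7%, 46.0%, 46.8% and 84.2% in Crep, and in 1 cell in Cren. Among Crep cells called for another Trbv it was present in 2.81%, 3.31%, 1.99% and 12.7%. The pair lay in clusters 7 and 4 in every Crep hashtag (86.2%, 97.6%, 94.1% and 97.9%), beside 16.8%, 8.28%, 16.5% and 41.1% of other pair-called cells. Cluster 7 held more of it than cluster 4 in Crep 1, 2 and 4, and cluster 4 held 67.6% of it in Crep 3.

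**Figure D4:**
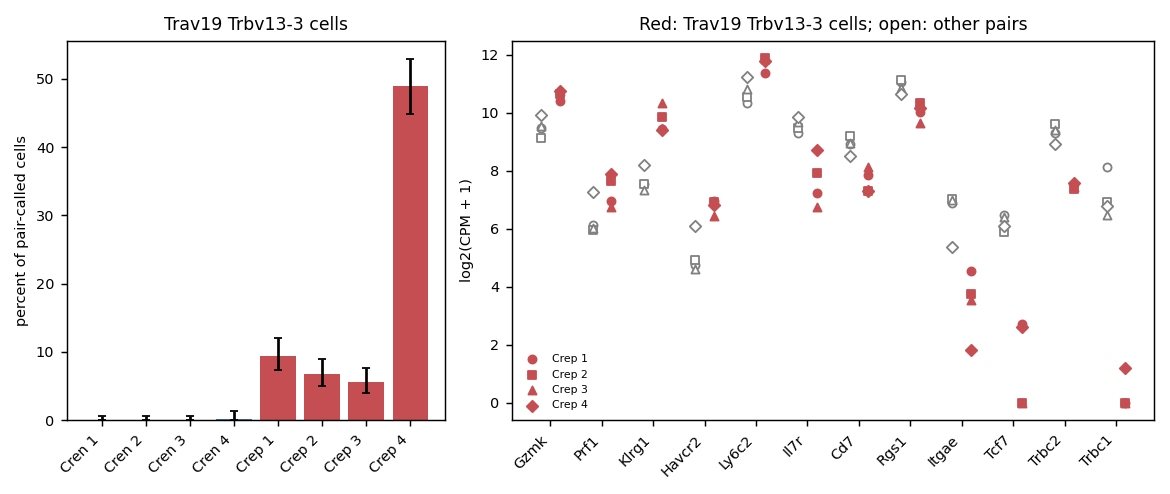
Left, Trav19 Trbv13-3 cells as percent of pair-called cells in each hashtag with 95% Wilson intervals; Cren bars (0 or 1 cell) are at or near 0. Right, levels of 12 genes as log2(CPM + 1) in these cells (red) and in other pair-called cells (open), with 1 symbol per Crep hashtag; Tcf7, Itgae and Trbc1 are lower in red in 4 of 4 hashtags and Gzmk is higher in 4 of 4.

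The other receptor genes of these cells were counted. Trav3-3, which lies 5′ of Trav19, had a UMI in 62.0%, 59.6%, 54.5% and 53.0% of Crep Trbv13-3 cells with a Trav19 UMI, beside 6.07%, 4.89%, 4.39% and 14.2% of cells called for another Trbv. Trav19 and Trav3-3 are 56.3% identical in coding sequence. Trbc1, the first beta constant gene, had 1 UMI in the 420 Crep cells of the pair, while 18.1% to 36.3% of other pair-called cells of the same hashtags had a Trbc1 UMI. Trbc2, the second beta constant gene, had a UMI in 41.4%, 40.5%, 26.5% and 37.1% of the pair's cells and in 71.0%, 73.4%, 66.4% and 58.2% of the others. The pair's cells held 20 Trbj UMIs, all from Trbj2 segments, which join to Trbc2 only. Other pair-called Crep cells held 131 Trbj1 and 168 Trbj2 UMIs. Of the 20, Trbj2-6 gave 1, 2, 0 and 8 in Crep 1 to 4 and Trbj2-2 gave 1, 1, 2 and 5, so more than 1 J segment was counted in these cells. The gamma variable gene Tcrg-V7 had 285, 189, 118 and 11.5 CPM in the pair's cells and 52.6, 15.0, 10.2 and 2.44 CPM in the others. It was higher in 4 of 4 hashtags, and in both sets Crep 1 was the highest hashtag and Crep 4 the lowest. Another gamma variable gene, Trgv2, had 492, 328, 312 and 182 CPM in the pair's cells. In the others it had 345, 491, 356 and 240 CPM, so Trgv2 was higher in the pair in Crep 1 and lower in Crep 2, 3 and 4.

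Gene expression of Trav19 Trbv13-3 cells was compared with that of other pair-called cells of the same 4 Crep hashtags, as UMI sums with the hashtag as a block (edgeR quasi-likelihood test). Receptor genes were fitted but left out of the counts of genes. In Crep 4 the other cells include 54 called Trav3-3 Trbv13-3, of which 48.1% had a Trav19 UMI. They also include 21 called Trav19 Trbv12-2. Whether such cells belong to the same family as the pair was not tested. The test called 248 of 7603 genes (3.26%), of which 101 (1.33%) were higher and 147 (1.93%) lower. With only the cells of clusters 4 and 7 on both sides, 26 of 4176 genes passed. DESeq2 called 99 of 8243 genes. With the pair's set widened to Trbv13-3 cells with a UMI of Trav19 or Trav3-3, edgeR called 310 of 7653 genes.

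Cytotoxic genes were higher in the pair's cells. Of the 10 genes of that list, 7 rose and 0 fell (median log2 fold change 0.812, beside 0.00702 over all genes tested). Within clusters 4 and 7, Gzmk alone of the 7 was called, and the log2 fold changes were 0.333 for Gzmk, 0.0174 for Prf1, 0.0617 for Gzmb, 0.0778 for Klrd1 and -0.377 for Zeb2. Gzmk, a granzyme, had 1365, 1615, 1711 and 1734 CPM in the pair's cells and 712, 562, 739.9 and 984 CPM in the others. Every value in the pair was above every value outside it, which is 1.11 on the log2 scale with an SE of 0.0883 (edgeR adjusted p = 7.95e-22). Prf1, the pore-forming protein perforin, was at 123, 202, 108 and 238 CPM beside 68.7, 60.6, 65.1 and 155 CPM (log2 fold change 0.918, SE 0.163, edgeR adjusted p = 6.33e-06). Nkg7 rose by 0.353 and Klrd1 by 0.428. Of the 7, Gzmk, Prf1 and Nkg7 also passed whichever hashtag was left out. Gzmb, Zeb2, Ccl5 and Klrd1 did not, and the highest edgeR adjusted p of these 4 was 0.193 (without Crep 1), 0.449 (without Crep 3), 0.410 (without Crep 3) and 0.0690 (without Crep 4). Klrg1, a receptor of short-lived effector cells, had 688, 928, 1291 and 672 CPM beside 186, 186, 161 and 291 CPM. It was higher in 4 of 4 hashtags at a log2 fold change of 2.05 (SE 0.368), but its edgeR adjusted p was 0.145, and 4.63e-70 to 0.492 with a hashtag left out.

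Several genes of memory-like and tissue-resident T cells were lower. Of the 6 tested genes of the stem-like list, 4 fell and 0 rose (median log2 fold change -1.58). Lef1 had 101, 107, 118 and 97.3 CPM in the pair's cells beside 86.4, 71.6, 96.3 and 99.9 CPM. It was higher in 3 of 4 hashtags (log2 fold change 0.193, edgeR adjusted p = 0.819). Neither Lef1 nor Slamf6 of this list passed. Within clusters 4 and 7, 0 genes of this or the tissue-resident list were called, and Itgae, Id3 and Bach2 were below the count filter there. The log2 fold changes there were -2.47 for Tcf7, -0.652 for Il7r, -0.247 for Rgs1, -0.300 for Cd69 and 0.104 for Cxcr6. Tcf7, a transcription factor of memory and stem-like T cells, had 5.596, 0, 0 and 5.12 CPM in the pair's cells and 88.5, 58.1, 83.5 and 67.0 CPM in the others. The groups did not overlap, and the log2 fold change was -4.07 (SE 0.4217, edgeR adjusted p = 1.47e-15). Il7r, the receptor chain for interleukin 7, had 151, 239.8, 108 and 417 CPM beside 626, 715, 817 and 917 CPM (log2 fold change -1.58). Its edgeR adjusted p was 9.71e-06, and 0.0530 without Crep 2. Bach2 lost its call without Crep 1 (edgeR adjusted p = 0.0516). Id3, the other gene that fell, rested on 1 UMI in the pair's cells. It passed in none of the fits with a hashtag left out that tested it (lowest edgeR adjusted p = 0.108). Of the 7 tested tissue-resident genes, 5 fell and 0 rose (median -0.886). Itgae had 22.4, 12.6, 10.8 and 2.56 CPM beside 118, 131, 126 and 40.2 CPM, which is -3.18 on the log2 scale with an SE of 0.345 (edgeR adjusted p = 1.63e-14). Rgs1, Cd69, Cxcr6 and Zfp683 were the others. Cxcr6 and Zfp683 lost their calls without Crep 2 (edgeR adjusted p = 0.118 and 0.138).

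Of the 7 exhausted-state genes only Havcr2, the inhibitory receptor TIM-3, rose, with 123, 120, 86.1 and 111 CPM beside 25.8, 29.6, 23.6 and 68.2 CPM (log2 fold change 1.47, SE 0.224, edgeR adjusted p = 1.33e-07). Within clusters 4 and 7 it was at 0.544 and did not pass (edgeR adjusted p = 0.488). Pdcd1 and Tox were at low levels in both sets and did not pass. None of the tested proliferating (3), interferon response (4), type 17 (1), NK and innate-like (3), myeloid (3) or B and plasma cell (1) genes passed, and the CD4 T cell genes were below the count filter. Of the CD8 T cell genes Cd8b1 was higher by 0.364 and Cd8a lower by 0.350, and both lost the call with a hashtag left out (edgeR adjusted p up to 0.194 without Crep 1 and 0.355 without Crep 2). Trdc was higher, with 27.98, 18.9, 75.3 and 23.0 CPM beside 2.15, 1.00, 3.07 and 9.75 CPM (edgeR adjusted p = 1.66e-04). It rested on 33 UMIs in the pair's cells. Tcrg-C4 was lower, with 2 UMIs in the pair's cells (edgeR adjusted p = 3.63e-05). Tcrg-C2 was lower as well, with 26 UMIs (log2 fold change -1.12, edgeR adjusted p = 0.0112). It passed in 1 of 4 fits with a hashtag left out. Tcrg-C1 did not pass (log2 fold change -0.246, edgeR adjusted p = 0.970). The part of gamma-delta transcription in these results was not tested.

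The genes of smallest adjusted p outside the lists were Ly6c2, Lgals1, Cd6, Gm32772, Anxa1, Klrc1, Wdr95 and Reep5, which rose, and Cd7, Jun, Ifitm2, Emb, Fam241a, Gm47015 and Camk2b, which fell. Klrc1 encodes the inhibitory lectin receptor NKG2A, Cd6 a surface receptor of T cells, Anxa1 an annexin and Jun a subunit of the AP-1 transcription factor. Ly6c2 had 2636, 3805, 3691 and 3574 CPM in the pair's cells beside 1310, 1484, 1796 and 2440 CPM (log2 fold change 0.987, SE 0.0883), but its edgeR adjusted p was 0.216 without Crep 3. Cd7 had 229, 158, 280 and 157 CPM beside 491, 593, 495 and 361 CPM (log2 fold change -1.24, SE 0.124, edgeR adjusted p = 1.57e-16). Of the 20 genes of smallest adjusted p, 18 passed whichever hashtag was left out, and Ly6c2 and Ccl5 were the exceptions. Among the cells of clusters 4 and 7 only, 5 of the 20 passed: Gzmk, Ly6c2, Cd6, Jun and Fam241a.

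Many cells held UMIs of more than 1 segment of a kind. A second Trbv segment was present in 2739 cells (32.0%) and a second Trav segment in 2378 cells (27.8%). With at least 2 UMIs of each segment these numbers were 842 (9.83%) and 726 (8.48%). Among the largest pairs, Trav7-3 Trbv2 cells had a Trav1 UMI in 78.3% and Trav8n-2 Trbv13-3 cells a Trav4-4-dv10 UMI in 61.7%. In Trav2 Trbv19 cells of Crep 1 the most frequent further Trav segment was in 0.980% of cells. The part of free RNA and of droplets with several cells in these second segments was not tested. Either of 2 alpha segments can give the call in such cells. In Crep 4, 54 cells were called Trav3-3 Trbv13-3, and 48.1% of them had a Trav19 UMI.

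The most frequent second beta segment was Trbv12-2, in cells called for segments that lie 3′ of it. A Trbv12-2 UMI was present in 36.6% of Trbv13-2 cells, 22.2% of Trbv13-3 cells, 32.0% of Trbv14 cells, 18.1% of Trbv15 cells, 19.3% of Trbv16 cells, 17.7% of Trbv17 cells and 16.2% of Trbv19 cells. In cells called for the 7 segments 5′ of it the share was 1.82% to 6.25%. Farther 3′, from Trbv20 on, it was 0% to 6.45% among segments with at least 20 called cells. Over all segments on each side, the share was 14.6% to 24.7% per hashtag for 3′ segments and 1.61% to 10.4% for 5′ segments, and the 3′ share was higher in 8 of 8 hashtags. The coding sequence of Trbv12-2 is 50.3% identical to Trbv13-2, 49.7% to Trbv13-3 and 52.9% to Trbv14. Trbv12-2 was itself called in 552 cells, and a Trbv13-2 UMI was present in 22.5% of them. No count here tells whether a Trbv12-2 UMI came from a joined gene.

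**Figure D5:**
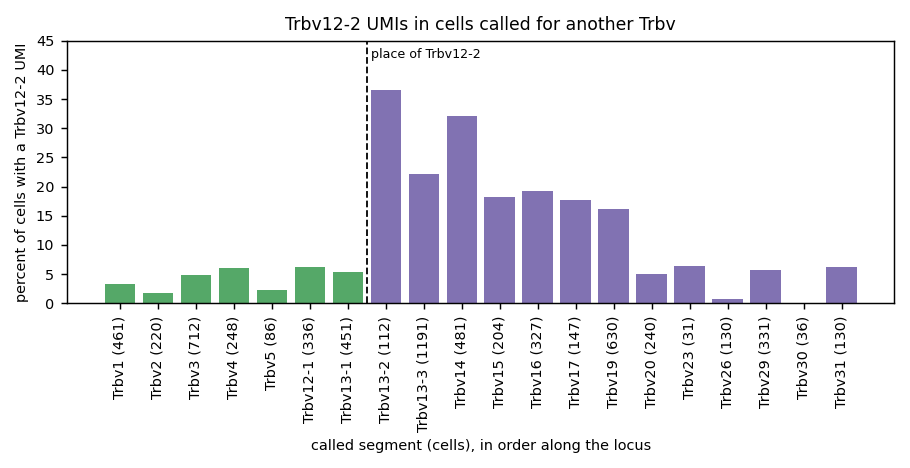
Percent of cells with a Trbv12-2 UMI among cells called for each other Trbv segment with at least 20 called cells (cells in brackets), in order along the locus. Segments 5′ of Trbv12-2 (green) lie at 1.82% to 6.25% and those from Trbv13-2 to Trbv19 (purple, left) at 16.2% to 36.6%.

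Segments known from innate-like T cells were also counted. The Trav11n row, close to the Trav11 segment of invariant natural killer T cells, had 11 UMIs and 5 called cells, and Traj18, their J segment, had 22 UMIs. Trav1, the alpha segment of mucosal-associated invariant T cells, was called in 75 cells, of which 34 were in Cren 3 and 18 of those were called Trbv2. Only 1 Trav1 cell was called Trbv19 and 15 were called a Trbv13 segment, the usual beta partners of those cells. None of the receptor's constant genes Trac, Trbc1 and Trbc2 and the CD3 chains passed between the groups in the edgeR fit (lowest adjusted p = 0.349, Cd3g). Trac ran from 116 to 193 CPM over the 8 hashtags, Trbc2 from 324 to 836 CPM and Cd3e from 1293 to 1608 CPM. Trbc1 ran from 52.0 to 222 CPM, and Crep 4 was the lowest for Trbc1 and Trbc2.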

How the data were processed

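The table of UMI counts per gene and cell was deposited by the authors as raw counts, made with a 10x Genomics 5′ v2 kit with feature barcoding, per the labels' protocols. The submitters' processing notes name Seurat 4.3.0, mm10, Cell Ranger 7.0.0 and bcl2fastq 2.20.0.422, with no role for each, and how reads shared by similar segments were counted is not given in the sources used here. Hashtag, group and cluster of each cell were taken from the deposited annotation. No cell was removed and no doublet caller was run; 32 kept cells had been called as 2 hashtags by 1 of the annotation's classifiers.

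Each cell's Trav and Trbv were called as described in the text. For the tests, each hashtag's cells were added up and compared in edgeR 4.0.16 (TMM, filterByExpr, robust quasi-likelihood, R 4.3.3), with DESeq2 1.42.0 as an alternative. Both designs were run on simulated counts. Of 2-fold changes, 100 of 114 were recovered between the groups and 39 of 101 in the pair comparison. Of 4-fold changes, 85 of 86 and 80 of 99 were recovered. Every simulated gene had the same spread beyond counting error, so power for V rows was not measured. CPM use plain totals. Single values were compared by exact permutation. Named segments are the 10 Trav and 10 Trbv with the most called cells. Any with over 25% of the called cells of a hashtag or cluster were added. The rule for named pairs was the 10 with the most cells in a hashtag. The largest pair of each hashtag was also named. Further pairs, such as Trav6n-6 Trbv3, Trav16n Trbv13-1 and Trav12-2 Trbv4, were picked after their clusters had been seen. The 20 genes named first in the pair comparison have the smallest adjusted p, 10 in each direction. Members, gene lists and tests were chosen with earlier results of these data known, and the comparison of Trav19 Trbv13-3 cells was added after V use had been seen. Wilson and Poisson intervals and limits for a count of 0 (3 counts) cover counting error only. Analyses used Python 3.11.15, numpy 2.4.6, pandas 2.3.3 and scipy 1.17.1. Alternatives were another tool, no low-count filter, a minimum of 2 UMIs for a call, thinned cells, cells given their hashtag by both classifiers, leaving out cluster 10, leaving out each hashtag, and the hashtag number as a block.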

Additional observations from a re-analysis of the deposited data

Results flagged for a closer look

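Among 62 sets of 4 hashtags examined, 11 had a hashtag far from the other 3. The rule used flags about 1 in 20 sets by chance only where values are independent and normally distributed. Several of the 11 sets were flagged for the same hashtag, Crep 4, and are not independent. Whether 11 is more than chance gives was therefore not tested. In Cren, the share of cells with a called Trbv was 78.8% in Cren 4. Trbv19 had 65.5 CPM in Cren 4 (median of the other 3, 33.1), Trav13-1 had 112 CPM in Cren 2 (16.1), Trav14-3 had 76.6 CPM in Cren 2 (10.2) and Trav7-3 had 174 CPM in Cren 3 (7.38). In Crep, the repeat probability in Crep 4 was 35.4% for Trbv, 35.3% for Trav and 25.4% for pairs. Trav19 had 531 CPM in Crep 4 (87.5 in the other 3), Trav3-3 had 230.3 CPM in Crep 4 (44.6) and Trav2 had 140.2 CPM in Crep 1 (3.49). Cren 4, whose largest pair was Trav8n-2 Trbv13-3 (94 cells), gave the first 2 of these values. The hashtags of the other values hold the pairs Trav13-1 Trbv13-3 (61 cells), Trav14-3 Trbv3 (99), Trav7-3 Trbv2 (69), Trav19 Trbv13-3 (286) and Trav2 Trbv19 (102).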

How the results depend on the processing

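Measures of diversity depended on Crep 4, which holds 286 of the 420 Crep cells of Trav19 Trbv13-3. Leaving out each hashtag in turn moved the Crep minus Cren difference over 0.677 to 9.49 points for Trbv repeat probability, -1.46 to 8.81 for Trav, -1.28 to 6.48 for pairs and -3.02 to 10.5 for the largest pair share. The negative values came without Crep 4. With clusters 4 and 7 left out, an alternative chosen after seeing the data, the last 3 were -1.51, -1.14 and -2.76 points. None of these passed an exact permutation test. The difference in Trav calls was 5.37 to 8.34 points with a hashtag left out, and passed without Cren 3 (8.34). The likeness excess of same-pair cells was positive in each alternative run (0.0282 to 0.0920) and 0.0377 to 0.0487 with a hashtag left out, with unadjusted sign permutation p of 0.0078 to 0.0156. The alternatives included equal weights for the larger pairs.

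V rows called between the groups were 0 in the edgeR fit, 2 with DESeq2 and 0 to 1 with a hashtag left out. For the 22 named segments, 267 of 284 alternative values kept direction and side of the threshold. With a hashtag left out, 8 uncalled segments changed sign, over these log2 ranges: Trbv12-2 -0.30 to 0.063 (above 0 without Cren 1), Trbv12-1 -0.00089 to 0.77 (below 0 without Cren 3), Trbv29 -0.66 to 0.46 (-0.17 without Cren 3, -0.66 without Crep 2), Trbv16 -0.47 to 0.20 (0.20 without Cren 3, 0.047 without Crep 2), Trav12-2 -0.11 to 1.24 (-0.11 without Cren 1, -0.061 without Cren 4, -0.030 without Crep 3), Trav16n -0.61 to 0.082 (above 0 without Crep 4), Trav2 -0.85 to 3.18 (below 0 without Crep 1) and Trav7-3 -2.94 to 0.37 (above 0 without Cren 3).

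Genes called in Trav19 Trbv13-3 cells numbered 248, and all alternatives were chosen after seeing the data. Called genes were 99 with DESeq2, 159 with no replicate block and 26 within clusters 4 and 7. They were 310 with the set widened to Trbv13-3 cells with a UMI of Trav19 or Trav3-3. With a hashtag left out they were 124 to 205 (149 without Crep 1, 124 without Crep 2). The fit took its spread mostly from all genes (median prior degrees of freedom 193.5 beside 3 residual). Within clusters 4 and 7, Lgals1 (-0.084), Zeb2 (-0.38), Cxcr6 (0.10) and Cd8a (0.24) changed sign and did not pass. Hashtags of Cren and Crep share the numbers 1 to 4, but no source ties a number to a mouse or batch. Deviations from the group means correlated at -0.043, 0.14, 0.18 and 0.12 between hashtags of the same number. Between hashtags of different numbers they ran from -0.17 (Cren 2 with Crep 4) to 0.21 (Cren 2 with Crep 1). Of these, only Cren 2 with Crep 1 was above 0.12. Whether the numbers mark pairs was not tested, and the main fit did not use them as pairs. With the number as replicate block, a fit added after seeing the data, edgeR called 118 genes in place of 59 and 2 V rows in place of 0, and Trbv29 was at -0.12. Alpha calls were fewer than beta calls: 66.5% of cells had a Trav call, beside 82.6% with a Trbv call.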
